A study of Mus musculus with 6 samples.

Results

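The genes described here are 10 imprinted genes that restrain or drive growth: H19, Meg3, Rian, Dlk1, Peg3, Cdkn1c, Mest, Plagl1, Grb10 and Ndn. They were selected by gene name, with the values of these same libraries across replicate numbers and irradiation already known, and all 10 were found, once each, among the 20665 genes of the deposited table. Their levels across replicate numbers are therefore a description and carry no test of their own. RNA was measured by sequencing in primary gingival fibroblasts, connective tissue cells of the gum, isolated from the maxilla (upper jaw) of wild-type C57BL/6 mice. The non-irradiated group has 3 libraries, and so does the group irradiated with an Er:YAG laser at 3.9 J/cm2 from 25 cm onto a 35-mm dish; both were collected at 3 h. The libraries of each group are numbered 1 to 3 in the labels, which do not say whether a number marks an animal, a culture or a day, so a p-value here reflects how these particular libraries scatter, and some of that scatter may be technical.

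Imprinted genes are expressed mainly from the allele of 1 parent, under the control of DNA methylation that is laid down in the egg or sperm. Many of them act on growth: paternally expressed genes often promote it and maternally expressed genes often restrain it, and many are high in fetal tissue and decline after birth. They lie in clusters in which long noncoding RNAs and protein-coding genes share control regions. The counts here sum over both parental alleles, so imprinting itself was not measured.

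The 6 libraries held 45178137 to 59904715 gene-assigned reads. Epithelial markers were near 0 in all 6, with a summed level of 5.77 to 19.6 normalized counts (read counts divided by a size factor for each library), and Krt5, Krt14 and Trp63 were not among the listed genes. All 9 fibroblast markers were present, with sums of 1537579 to 2244109. The fibroblast sum was highest in the libraries numbered 1, at 2244109 and 2111061, but its members differed in direction. Col3a1, a fibrillar collagen, had 326117 and 298103 normalized counts there and 89796 to 114441 elsewhere, whereas Lum, a collagen-binding proteoglycan, had 59.2 and 50.3 there and 782 to 1119 elsewhere. The 4 endothelial markers summed to 617 and 600.4 there and to 127 to 240 elsewhere, most of it Tek, a receptor, with 382 and 378. They too differed in direction. Kdr had 185 and 184 there against 42.0 to 92.0, but Cdh5 was lowest there, at 7.61 and 10.9 against 14.4 to 33.5. Pecam1 overlapped, with 42.3 and 27.3 there against 22.1 to 43.0. The cycling cell markers summed to 22217 and 19313 there and to 27219 to 32571 elsewhere. The libraries numbered 3 had the highest sums of the 4 smooth muscle and pericyte markers, 304965 and 335262 against 228339 to 251994, with Cnn1, calponin, at 30892 and 33520 against 8984 to 15055. The skeletal muscle actin Acta1 was also highest there, at 6717 and 7051 against 1898 to 3337, as was Alpl, a bone marker, at 503 and 538 against 13.1 to 31.3. Des, the other skeletal muscle marker present, was instead highest in the libraries numbered 1, at 75.3 and 71.1 against 30.9 to 41.1. The skeletal muscle markers Myod1, Myf5 and Pax7 were not among the listed genes. In bulk RNA, fewer cells of a type and less RNA per cell cannot be told apart. These marker levels move with the replicate numbers, and the part of cell makeup in the results that follow was not tested.

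Across replicate numbers, 8 of the 10 genes had their highest value in the library numbered 1 in both groups, Mest had it in the library numbered 3 in both groups, and Ndn stayed nearly level. How many of all genes tested were highest in number 1 in both groups was not counted, so the 8 are a description only. The order of the 3 numbers was the same in the non-irradiated and the irradiated group for 7 of the 10 genes, against 34.4% of the 16141 genes tested. In limma with irradiation as a term, 9 of the 10 differed between replicate numbers at an adjusted p under 0.05, against 13.4% of genes tested. Both shares come from the comparison for which the genes were chosen, so neither supports anything further. In edgeR on reads recovered from the values the same 9 passed, among 2036 genes in all. In limma without its variance trend across genes 1 of the 10, H19, passed, among 64 genes in all. Without the libraries numbered 1 there were 4, namely H19, Meg3, Peg3 and Mest, among 1416 in all, where the full set gave 2165.

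**Figure D1:**
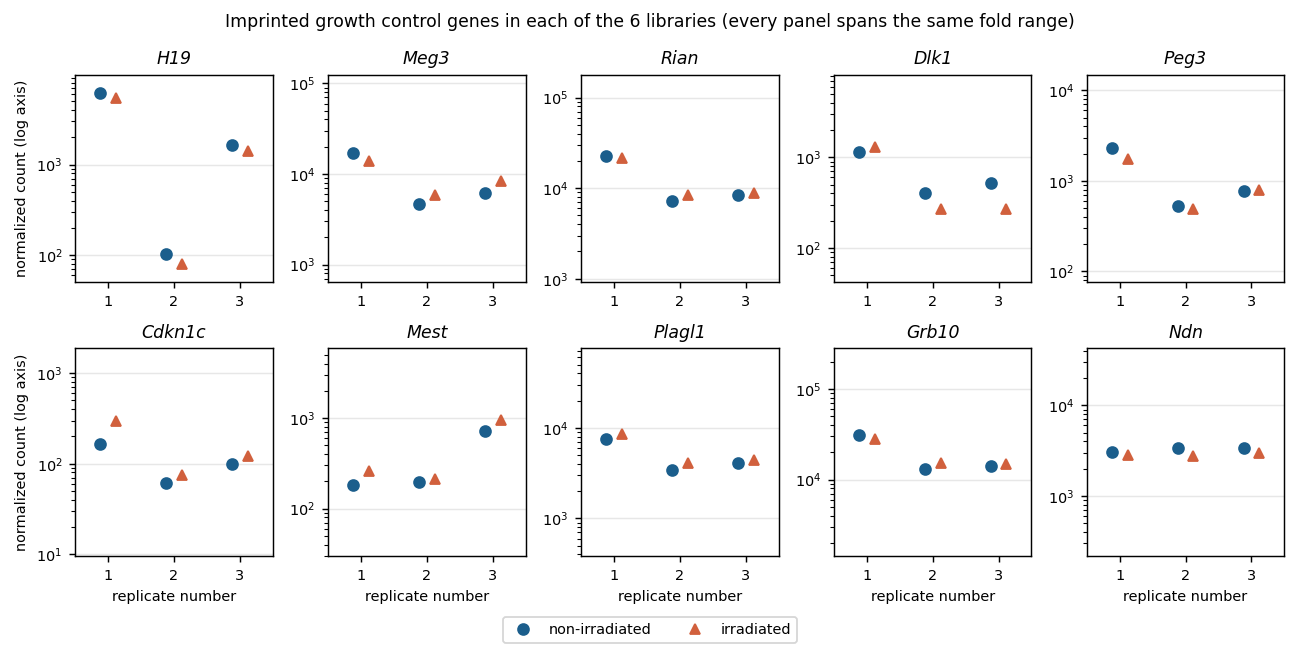
Normalized counts (log axis) of each gene against replicate number, with 1 point per library, circles for non-irradiated and triangles for irradiated cells; every panel spans the same fold range. In 8 panels the points at replicate number 1 are on top, for Mest those at number 3 are, and the Ndn points lie between 2732 and 3379.

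H19, a maternally expressed long noncoding RNA, carries in its transcript the precursor of miR-675, a microRNA that restrains growth in the placenta. H19 spanned more of its scale than any other of the 10 genes. It had 6182, 102 and 1657 normalized counts without irradiation, in libraries 1, 2 and 3, and 5461, 80.2 and 1418 with it. Values in sets of 3 follow this order of libraries for every gene. Both libraries numbered 2 were low, those numbered 3 intermediate and those numbered 1 high, with no overlap between numbers. The value in library 1 was 60.3-fold that in library 2 among non-irradiated cells and 68.1-fold among irradiated cells. The low value rests on 101 reads in non-irradiated library 2, with a 95% exact Poisson interval of 83.5 to 125 normalized counts that covers counting error only. The 3 replicate-number means of H19 spanned 5.99 on the log2 scale, and 23 of the 16141 genes tested spanned at least as much. The other genes of the 10 except Ndn spanned from 1.08 (Grb10) to 2.02 (Mest), and the median over all genes tested was 0.40.

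**Figure D2:**
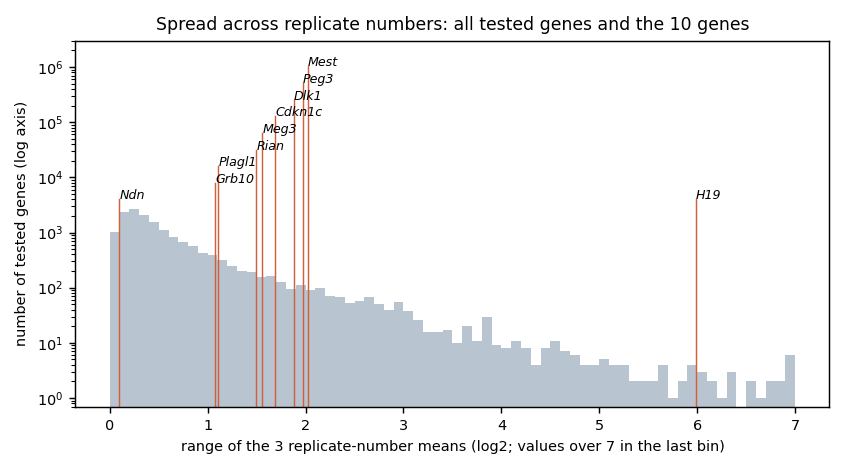
Number of genes tested (log axis) by the range of their 3 replicate-number means on the log2 scale, with the 10 genes marked by vertical lines of arbitrary height. H19 lies at 5.99, Ndn at 0.10 and the others from 1.08 to 2.02.

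Mature microRNAs inside the transcribed spans of these genes show what else each host RNA can give rise to. Of the hairpins in the RefSeq table (GRCm38.p6), 1 each was matched on the same strand within H19, Meg3 and Mest, and 3 within Rian; exons of Meg3 also hold Mir1906-1 in GENCODE M21. The mature sequences matched have no seed in common. Both arms are given for H19, highest in replicate number 1, and for Mest, highest in number 3. For Meg3 and Rian, also highest in number 1, 1 arm each is given. Sequences run 5′ to 3′, with the seed (bases 2 to 8) in capitals. The mature microRNAs themselves were not measured.
miR-675-5p (in H19): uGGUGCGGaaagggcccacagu
miR-675-3p (in H19): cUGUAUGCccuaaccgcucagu
miR-770-5p (in Meg3): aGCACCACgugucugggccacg
miR-370-3p (in Rian): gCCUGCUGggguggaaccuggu
miR-335-5p (in Mest): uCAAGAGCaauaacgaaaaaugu
miR-335-3p (in Mest): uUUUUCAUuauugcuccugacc

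Igf2, the paternally expressed growth factor gene next to H19 on chromosome 7, competes with it for enhancers through a shared control region that binds the insulator protein CTCF. Igf2 is described beside H19 for that reason. It had 7.61, 18.3 and 1256 normalized counts without irradiation, in libraries 1, 2 and 3, and 12.0, 18.6 and 1197 with it. Igf2 was therefore near the bottom of the measured range where H19 was highest, and near it again where H19 was lowest. Its value in library 3 was 68.8-fold that in library 2 among non-irradiated and 64.4-fold among irradiated cells. The 9 reads of non-irradiated library 1 give a 95% exact Poisson interval of 3.48 to 14.5 normalized counts. Both genes were abundant at the same time in the libraries numbered 3 alone. In GENCODE M21, Igf2 shares 3596 exonic bases with Gm49394, a protein-coding gene model on the same strand. Reads there cannot be told apart even with strand, so the level of Igf2 could be undercounted.

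Cdkn1c, maternally expressed and also on chromosome 7, encodes p57, an inhibitor of cyclin-dependent kinases. It had 163, 60.9 and 99.4 normalized counts without and 294, 74.4 and 123 with irradiation. The libraries numbered 1 were highest in each group, and no values of different numbers overlapped. The lowest library rests on 60 reads. Of the other CDK inhibitors, Cdkn1b (p27) had 4584, 2999 and 3089 without and 3857, 2781 and 3292 with irradiation. Cdkn2b had 1554, 1011 and 970 and then 1650, 811 and 764. Cdkn2a, given further below, was also highest in the libraries numbered 1 in both groups. Cdkn1a (p21), by contrast, had 12378 to 16321 with its lowest value in non-irradiated library 1.

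The genes Dlk1, Meg3, Rtl1, Rian, Mirg and Dio3 lie in this order on chromosome 12, in a cluster where Meg3, Rian and Mirg are expressed from the maternal and Dlk1, Rtl1 and Dio3 from the paternal allele. All 6 were highest in the libraries numbered 1 in both groups. Meg3, a long noncoding RNA with growth-restraining activity in human cells, had 17217, 4655 and 6221 normalized counts without and 13872, 5917 and 8325 with irradiation. Rian, a host RNA of small nucleolar RNAs, had 22651, 7287 and 8504 and then 21364, 8333 and 8892. In both genes library 1 stood clear of libraries 2 and 3, which were closer together. Mirg, a microRNA host and no member of the 10, had 972, 237 and 330 and then 935, 400 and 457.

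Dlk1, a transmembrane protein with EGF repeats that holds back fat cell differentiation, had 1151, 409 and 527 normalized counts without and 1289, 267 and 272 with irradiation. Library 1 was 2.81-fold above library 2 in non-irradiated and 4.83-fold above it in irradiated cells. Dio3, the deiodinase that inactivates thyroid hormone, had 3216, 606 and 1776 and then 2708, 512 and 1433. Both genes had their intermediate values in the libraries numbered 3, with those of Dlk1 nearer to libraries 2. Rtl1, a retrotransposon-derived gene, had 160, 8.12 and 36.4 and then 56.9, 31.3 and 27.9. Its lowest value rests on 8 reads, and it did not pass between replicate numbers (adjusted p = 0.114 in limma). Rtl1 lies opposite microRNA genes of the cluster and the strand setting of the counting is not given in the sources used here, so its reads could include antisense ones.

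Peg3, a paternally expressed zinc finger gene on chromosome 7, had 2315, 527 and 766 normalized counts without and 1727, 493 and 791 with irradiation. Library 1 was 4.40-fold above library 2 in non-irradiated and 3.50-fold above it in irradiated cells. Plagl1, a paternally expressed zinc finger transcription factor that halts the cell cycle and regulates other imprinted genes in mice, had 7627, 3408 and 4082 and then 8490, 4082 and 4409. Its libraries numbered 1 were about the same distance above libraries 2 in both groups, 2.24-fold and 2.08-fold.

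Grb10 encodes an adaptor that dampens insulin and IGF receptor signalling and is maternally expressed in most tissues outside the nervous system. It had 30930, 12950 and 14199 normalized counts without and 28356, 15157 and 14812 with irradiation. Libraries 2 and 3 changed places between the groups, and both lay far below library 1. Per kilobase of exon (GENCODE M21), Grb10 had the highest mean level of the 10, 2135 normalized counts, followed by H19 (1009), Ndn (827), Rian (704), Plagl1 (684) and Meg3 (518). The others per kilobase were Dlk1 (115), Mest (107), Peg3 (82.8) and Cdkn1c (66.6). The spread across libraries of H19 covers most of this order, so its place depends on the replicate number.

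Mest, a paternally expressed hydrolase-like protein of the endoplasmic reticulum and a host of miR-335, departed from the pattern of the other genes. It had 184, 195 and 722 normalized counts without and 260, 214 and 958 with irradiation. The libraries numbered 3 were 3.71-fold above those numbered 2 in non-irradiated and 4.47-fold in irradiated cells, as with Igf2. In GENCODE M21, Mest shares 912 exonic bases with Copg2 on the opposite strand, so reads of the 2 genes cannot be told apart there without strand.

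Ndn, a paternally expressed gene of the MAGE family that binds E2F1 and p53 in mice, had the narrowest range of the 10. It had 3028, 3379 and 3343 normalized counts without and 2868, 2732 and 2975 with irradiation. Its replicate-number means spanned 0.10 on the log2 scale, and 93.9% of genes tested spanned at least as much. Snrpn and Peg12, paternally expressed neighbours of Ndn in the chromosome 7 region that matches the human Prader-Willi locus, spanned 0.22 and 0.05. Mkrn3, another paternally expressed gene of that region, was low and not level, with 28.8, 10.1 and 50.8 normalized counts without and 30.6, 17.6 and 50.02 with irradiation, a range of 1.84 that did not pass. Snrpn had 727 to 956 normalized counts and Peg12 643 to 719 over the 6 libraries.

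Promoter sequences were available in RefSeq (GRCm38.p6, 250 bases before to 50 after each start) for 8 of the 10 genes, and those of 4 genes with different replicate-number patterns are shown: Meg3 and Peg3, highest in number 1, Mest, highest in number 3, and Ndn, level. They were searched for TGACGTCA, the palindromic cAMP response element, which reads the same on both strands and is drawn in capitals. It began at position -57 from the first start of Meg3 and at -178 from that of Peg3, and in no other of the 12 starts of the 8 genes. Of 32851 promoter windows of this length 1.79% hold it. These windows of Meg3, Peg3, Mest and Ndn hold 13, 13, 17 and 11 CpG dinucleotides, against a median of 7 over all windows. Of all windows, 60.4% hold as many as that of Ndn or fewer, and 70.3% as many as that of Mest or fewer. Other starts of the 8 genes ranged from 0 (Rian) to 45 (first start of Grb10), with 1 at the second start of Meg3 and 8 at the first of Mest.
Meg3 (chr12:109540746-109541045, plus strand): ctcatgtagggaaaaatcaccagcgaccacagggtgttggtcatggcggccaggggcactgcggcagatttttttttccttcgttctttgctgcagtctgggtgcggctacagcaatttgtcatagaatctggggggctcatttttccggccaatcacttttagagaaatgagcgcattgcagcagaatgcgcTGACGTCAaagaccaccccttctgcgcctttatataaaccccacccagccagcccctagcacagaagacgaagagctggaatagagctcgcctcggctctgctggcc
Peg3 (chr7:6730370-6730669, minus strand): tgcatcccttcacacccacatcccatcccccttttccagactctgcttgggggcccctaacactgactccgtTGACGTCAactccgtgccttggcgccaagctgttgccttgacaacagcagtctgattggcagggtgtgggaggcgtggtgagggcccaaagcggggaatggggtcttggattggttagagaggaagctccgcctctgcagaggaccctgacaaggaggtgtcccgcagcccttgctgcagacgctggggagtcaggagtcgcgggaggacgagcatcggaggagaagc
Mest (chr6:30737800-30738099, plus strand): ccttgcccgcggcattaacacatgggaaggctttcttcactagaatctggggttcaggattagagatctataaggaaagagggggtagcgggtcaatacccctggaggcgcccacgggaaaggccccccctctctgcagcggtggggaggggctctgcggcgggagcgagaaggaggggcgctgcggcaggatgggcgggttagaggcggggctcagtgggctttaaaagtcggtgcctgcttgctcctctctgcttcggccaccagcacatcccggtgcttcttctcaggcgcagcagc
Ndn (chr7:62348027-62348326, plus strand): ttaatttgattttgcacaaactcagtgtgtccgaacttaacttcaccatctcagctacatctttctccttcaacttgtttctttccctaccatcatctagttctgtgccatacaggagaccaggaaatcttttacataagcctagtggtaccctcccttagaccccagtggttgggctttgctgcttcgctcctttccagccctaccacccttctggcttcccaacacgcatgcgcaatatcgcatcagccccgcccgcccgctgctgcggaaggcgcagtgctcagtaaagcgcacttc

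Of 33 other imprinted genes listed, 28 were in the table and 26 had enough counts to be tested. Between replicate numbers 7 of the 26 passed in limma: Igf2, Dio3, Mirg, Igf2r, Slc22a18, Rasgrf1 and Inpp5f. The share over all genes tested was 13.4%. In edgeR 5 passed, and in limma without the variance trend 2, Igf2 and Dio3, among 64 genes in all. The list was written with earlier results of these libraries known, and its median range was 0.52 on the log2 scale, against 0.40 over all genes tested. Igf2r, the maternally expressed receptor that clears IGF2 from the cell surface, had 26691, 15193 and 19035 normalized counts without and 26215, 19249 and 18794 with irradiation. Nnat, a small paternally expressed membrane protein, had 103, 46.7 and 55.2 and then 67.8, 38.2 and 93.3, and did not pass. Many others stayed close to level: Sgce spanned 0.26 on the log2 scale, Osbpl5 0.15 and Gnas 0.32.

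**Figure D3:**
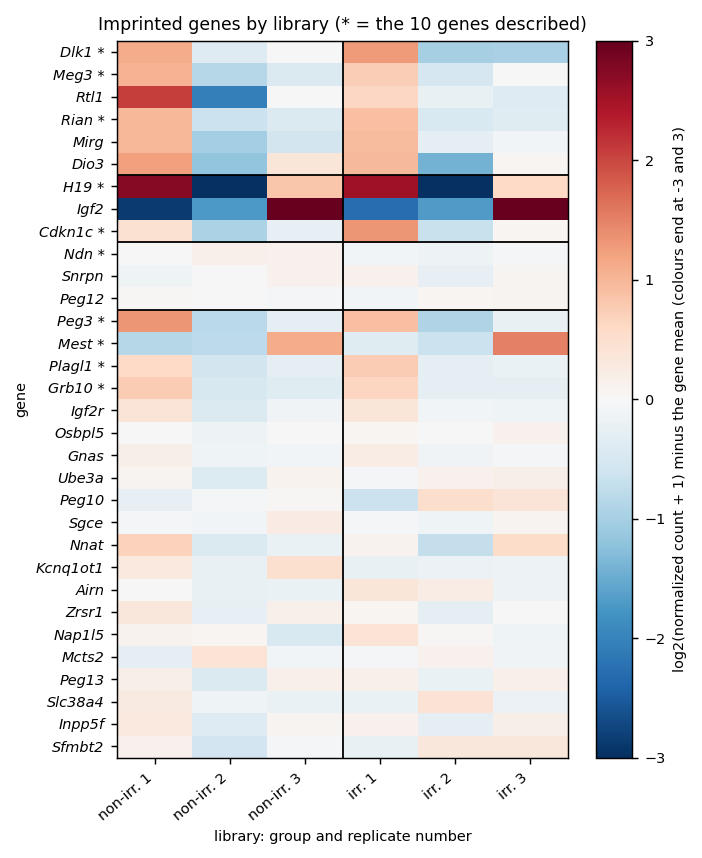
Heat map of log2(normalized count + 1) minus each gene's mean (colour, ending at -3 and 3) for the 10 genes (asterisks) and the other listed imprinted genes whose mean is 50 normalized counts or more, by library; lines set off the chromosome 12 cluster, then H19, Igf2 and Cdkn1c, then Ndn, Snrpn and Peg12. The columns of libraries numbered 1 are red for all 6 genes of the chromosome 12 cluster, Igf2 is red in the libraries numbered 3, and the Ndn, Snrpn and Peg12 rows are pale.

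Among 30 partners of these genes (insulin and IGF signalling, Notch, cyclins and their inhibitors, RNA-binding proteins and imprint regulators), 13 passed between replicate numbers in limma, against 13.4% of all genes tested. In edgeR 12 passed, and in limma without the variance trend 0, where 64 genes in all did. Without the libraries numbered 1, 7 passed, among 1416 in all. The list was chosen with these values known, so its share supports nothing further. Igf2bp3, an RNA-binding protein of the Igf2 transcript, had 883, 98.4 and 224 normalized counts without and 1019, 165 and 225 with irradiation. Igf2bp1, its relative, had 426, 143 and 304 and then 445, 177 and 256. Notch3 had 1233, 230 and 409 and then 981, 277 and 452, and Hey1, a Notch target, had 1012, 431 and 666 and then 911, 326 and 557. Cdkn2a, which encodes p16 and p19, had 2611, 1553 and 1885 and then 3488, 1362 and 1494. These 5 had the widest ranges of the 30, and in all of them the libraries numbered 1 were highest, as in most of the 10 genes. The imprint regulators were flatter: Ctcf spanned 0.17, Yy1 0.11, Trim28 0.20 and Dnmt1 0.35 on the log2 scale, and none of them passed.

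The genes whose log2 levels followed each of the 10 most closely over the 6 libraries were found by Pearson correlation. These correlations are descriptions, since same-numbered libraries move together and leave about 3 distinct points. H19 was most like Gprin3 (r = 0.98), Prg4, which encodes lubricin (0.94), and Sned1 (0.93). Gprin3 had 544, 24.3 and 159 normalized counts without and 332, 24.5 and 95.2 with irradiation. Meg3 was like Radil and Septin6, and Rian most like the kinase Fyn, the transcription factor Ebf3 and Grb10, with r of 0.997 to 0.999. Grb10 was most like Bach2, Sash1 and Trim21, and Peg3 most like Gnao1, Pde7b and Rtl5. Plagl1 was most like Irs2 (0.995), an insulin receptor substrate, then Fbln2 and Marchf3. Irs2 had 2206, 1204 and 1390 and then 2208, 1396 and 1481.

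Dlk1 was most like Krt20, C1qtnf7 and Ada, and Cdkn1c most like Rnf128, Pcdhga3 and Sugct (r from 0.97 to 0.99 for these 6). Mest was most like Mfap4, Glis1 and Bcl11b (0.98 each). Mfap4, a microfibril protein, had 24.5, 15.2 and 114 normalized counts without and 32.8, 23.5 and 206 with irradiation. Ndn was most like Ccdc181, Sh3d21 and Stimate (0.97 to 0.98), over a range so narrow that small deviations set the order.

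The study asked how the laser changed expression, here at 3 h. None of the 10 genes passed an adjusted p of 0.05. Ndn was the 1 gene of the 10 whose groups did not overlap, with all irradiated libraries below all non-irradiated ones. The mean was 3250.1 ± 193 normalized counts without irradiation (SD, n = 3) and 2858 ± 122 with it, a log2 fold change of -0.18 ± 0.10 (SE, adjusted p = 0.9998 in limma), or -0.18 ± 0.09 with the replicate number as a block (adjusted p = 0.995). For comparison, 2.65% of genes tested had all irradiated libraries below and 2.08% had all above. In limma without the block 0 of 16141 genes passed, 0% of those tested, and 132 had an unadjusted p under 0.05, of which 0 were among the 10. With the block 3 genes passed, 0.0186% of those tested, none of them among the 10, and 526 had an unadjusted p under 0.05, of which 1, Dlk1, was among the 10. On reads recovered from the values, edgeR without the block called 0 genes (112 at an unadjusted p under 0.05) and DESeq2 called 5 (119), none of them among the 10. With the block, in fits added after seeing the data, edgeR called 2 genes (484) and DESeq2 23 (421), again none among the 10. The fits without the block leave the spread between replicate numbers in their error.

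Within pairs of same-numbered libraries, Cdkn1c, Mest and Plagl1 had the higher value in the irradiated library in 3 of 3 pairs, and H19 and Ndn the lower one in 3 of 3. Of all genes tested 11.8% had the higher value in 3 of 3 pairs and 11% the lower. For H19 the log2 differences in pairs 1, 2 and 3 were -0.18, -0.35 and -0.22. They are small beside the 5.99 between replicate numbers, and the groups had 2647 ± 3158 and 2320 ± 2801 normalized counts (SD, n = 3). The log2 fold change of H19 was -0.25 ± 1.84 (SE) without the block and -0.25 ± 0.11 with it (adjusted p = 0.995 in limma).

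Cdkn1c had log2 differences of 0.85, 0.28 and 0.31 in the 3 pairs, and 108 ± 51.7 and 164 ± 115 normalized counts (SD, n = 3). Its log2 fold change was 0.48 ± 0.24 with the block (SE, adjusted p = 0.995 in limma). Mest had pair differences of 0.50, 0.14 and 0.41, and Plagl1 of 0.15, 0.26 and 0.11. For Dlk1 the pairs went in different directions, 0.16, -0.61 and -0.95, with 695 ± 399 and 609.6 ± 589 normalized counts. In the authors' deposited table Dlk1 had a log2 fold change of -0.46 with an unadjusted p = 0.0406 from DESeq2, the smallest of the 10, and each of the 10 had an adjusted p of 0.99997.

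**Figure D4:**
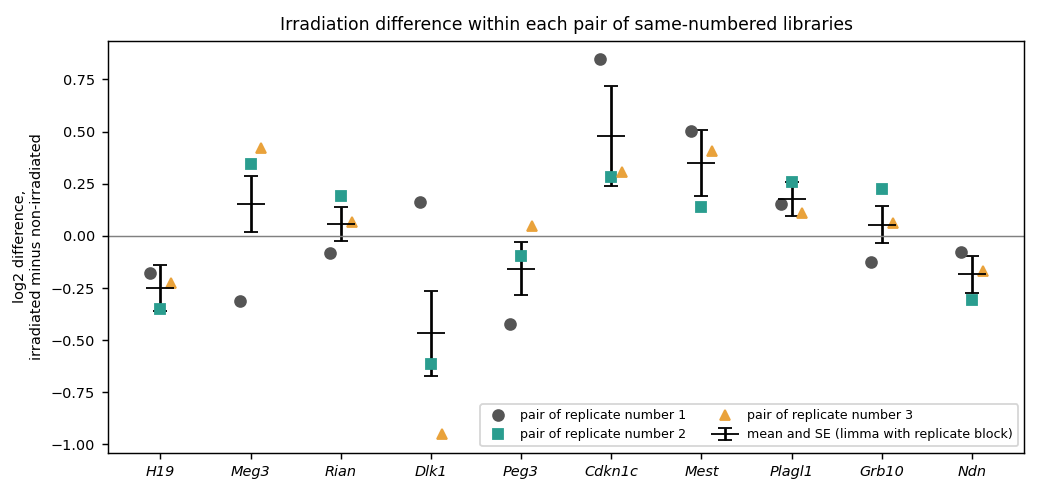
Log2 difference of irradiated minus non-irradiated library for each gene in the pairs of replicate numbers 1 (circles), 2 (squares) and 3 (triangles), with the mean and its SE from limma with the replicate block. The 3 points lie on the same side of 0 for H19, Cdkn1c, Mest, Plagl1 and Ndn, and on both sides for the other 5 genes.

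Meg3, Rian, Peg3 and Grb10 had pair differences on both sides of 0, from -0.42 (Peg3, pair 1) to 0.42 (Meg3, pair 3). In Meg3, Rian and Grb10 the pair of number 1 was negative and the other two pairs positive. Of the sum of squares of log2 levels, replicate number took 86.6% (Cdkn1c) to 99.7% (H19) in the 9 genes other than Ndn, and irradiation 0.18% (Rian) to 10.3% (Cdkn1c). In Ndn replicate number took 13.0% and irradiation 69.1%, of a small total (SD of 0.12 on the log2 scale over the 6 libraries). These shares were not computed for all genes tested, and the 10 genes were chosen with these values known. The median log2 fold change was 0.06 over the 10 genes, with 6 above 0, and 0.01 over all genes tested, with 8311 above 0. Of the other imprinted genes 0 of 26 passed for irradiation in limma with or without the block, and of the partners 0 of 30. At an unadjusted p under 0.05 there were 0 and 0 without the block, and 1 and 0 with it. The 1 was Dio3, at -0.27 ± 0.10 (log2 fold change and SE with the block, adjusted p = 0.995 in limma).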

How the data were processed

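RNA-seq was done on 6 libraries, 3 per group. The tools named in the submitters' processing notes are HISAT2 2.2.1, StringTie 2.1.7, FastQC 0.11.9 and Trimmomatic 0.39, and the build is GRCm39. In the sources used here, roles, annotation and strand setting are not given. The deposited values are normalized counts, a signal made by the authors by dividing gene counts by a size factor, with a log2 fold change and its standard error, a test statistic (score), p-value and adjusted p-value from DESeq2, per the file headers. Of 20745 rows, 80 repeated an identifier and were dropped. Dividing by each library's smallest value turned 100% of values into whole reads (tolerance 0.001).

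The 10 genes and the gene lists were chosen with earlier results of these data known. Genes that reached 10 normalized counts in 3 or more libraries (16141, all 10 among them) were fitted on log2(normalized count + 1), which understates changes of low genes, with limma 3.58.1 in R 4.3.3 (trend, 2-sided, Benjamini-Hochberg over all of them, threshold 0.05), without a block for irradiation and with irradiation as a term for the F test of replicate number. These fits leave 4 and 2 residual degrees of freedom. Alternatives used edgeR 4.0.16 and DESeq2 1.42.0 on recovered reads, other pseudocounts, filters and scalings, and left-out libraries. The fits were tested on simulated data.

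Replicate numbers were taken from the titles. Over the 13053 genes averaging 50 or more normalized counts, deviations from group means correlated at 0.64, 0.47 and 0.56 between same-numbered libraries and at most 0.03 otherwise, so the numbers were taken as pairs. Named genes are the 10, the 5 of each other list with the widest range of replicate-number means (mean of at least 50), the 3 most correlated genes per member (mean of at least 50, SD at least 0.5 times the member's, no pseudogenes or unnamed models; 1 of them is not reported here), and others chosen after their values were seen (Igf2r, Slc22a18, Rasgrf1, Inpp5f, Snrpn, Mkrn3, Peg12, Sgce, Osbpl5, Gnas, Cdkn1a, Cdkn1b, Ctcf, Yy1, Trim28, Dnmt1 and the markers). Sequences are from RefSeq and exon lengths from GENCODE M21, both on GRCm38, matched by symbol and gene identifier; H19 and Cdkn1c had no promoter entry. In GENCODE M21 exons of Cdkn1c and Meg3 also overlap antisense genes. Intervals cover counting error only.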

Additional observations from a re-analysis of the deposited data

How the results depend on the processing

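None of the 10 genes was called for irradiation under any setting run, and none of the other imprinted genes or partners with or without the block, the settings run for those lists. The count of genes called for irradiation in all, 0 in the fit reported, was 1 without the trend, 3 with the replicate block, 5 in DESeq2, 2 in edgeR with the block, 23 in DESeq2 with the block (these last 2 added after seeing the data) and 24 in the authors' deposited table. It was 0 to 1 when a library was left out. For H19 the log2 fold change was -0.231 in DESeq2 with the block, -0.184 without it and -0.230 as deposited. The deposited SE was 0.13 for H19 and 0.13 for Meg3. In limma these SEs were 0.11 and 0.13 with the block, and 1.84 and 0.50 without it. The deposited values were thus closer to the fits with the block, though the labels name no block. Meg3 had a log2 fold change of -0.0015 in edgeR. Leaving out 1 library unbalances the replicate numbers. The log2 fold changes then ran from -1.90 to 1.45 for H19, -0.23 to 0.71 for Meg3, -0.38 to 0.57 for Rian, -0.65 to 0.46 for Peg3, -0.058 to 0.93 for Cdkn1c, -0.32 to 0.99 for Mest, -0.16 to 0.52 for Plagl1 and -0.25 to 0.45 for Grb10, and stayed below 0 for Dlk1 (-1.22 to -0.03) and Ndn (-0.23 to -0.15).

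The replicate-number count of 2165 genes was 2036 in edgeR, 1154 without a filter, 64 without the trend, and 1416 to 2680 without a replicate number of both groups; the cause was not tested. For the 10 genes it was 1 without the trend and 4 to 9 without a number, for the other imprinted genes 3 without a filter, 2 without the trend and 5 to 8 without a number, and for the partners 7, 0 and 7 to 14. The replicate block changed no call of a gene in these lists. Low read numbers limit the precision of Cdkn1c and H19 in the libraries numbered 2 (60 and 101 reads without irradiation).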
